A study of Mus musculus with 27 samples.

Results

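Glutathione S-transferases are cytosolic enzymes that join the tripeptide glutathione to electrophilic compounds, among them aldehydes formed from oxidized lipids, and some of them also reduce lipid hydroperoxides. They fall into classes by sequence (alpha, mu, pi and theta are treated here), and the conjugates they make are trimmed and acetylated to mercapturates, a route in which the proximal tubule of the kidney has a large part. Several members are textbook targets of NRF2, a transcription factor that responds to oxidative and electrophilic stress.

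The genes described are 10 transferases taken by symbol from the expression table: Gsta1, Gsta2, Gsta3 and Gsta4 of the alpha class, Gstm1, Gstm2 and Gstm3 of the mu class, Gstp1 of the pi class, and Gstt1 and Gstt2 of the theta class. All 10 were found among the 19392 genes listed, and all 10 were above 0 in at least 3 kidneys, so that all were tested, although Gstm3 never reached 1 FPKM. Transcripts had been sequenced from the left kidneys of 27 C57BL/6 mice, 3 in each of 9 groups. The methods describe removal of the right kidney and an operation on a warmed plate, and list 0 min among the ischemia times. They do not say outright whether the 0 min mice, labelled sham, also lost the right kidney. The left renal pedicle was clamped for 0 min (sham), 16, 18, 20, 22, 24, 26, 28 or 30 min, and the kidney was taken after 24 h of reperfusion. The 0 min group therefore shows surgery without ischemia, and whether it also shows loss of the other kidney is not settled. There was no kidney from an unoperated animal to set beside it. Sex and age of the mice were not given in the sources used here.

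Values are FPKM, which are counts of fragments scaled to transcript length and to the fragments mapped in a library and so can be compared between genes. Over all genes the FPKM of single kidneys added up to 512453 to 554036, and relative depth, read from the smallest steps of low genes, lay between 0.938 and 1.07 of the median kidney. Total depth was unknown. As a check of the kidney label, the summed FPKM of 8 proximal tubule markers was 3402 to 3682 in the 0 min group and all 8 were above 0 in all kidneys. That sum lay between 2122 and 3682 from 16 to 26 min, between 1351 and 1502 at 28 min and between 837 and 964 at 30 min. Slc34a1 gave the largest part of it, with 2028 to 2377 FPKM in the 0 min group. The 8 markers did not move alike. Their log2 changes against 0 min ran from -2.84 (Aqp1) to 0.06 (Slc5a2) at 28 min, and from -3.27 (Aqp1) to -0.33 (Slc5a2) at 30 min. Because these are bulk samples, fewer cells of a type and less RNA per cell cannot be told apart. The summed FPKM of 4 neutrophil markers was 2.46 to 9.12 at 0 min, 9.92 to 14.9 at 28 min and 17.4 to 25.2 at 30 min. These 4 did not move alike. At 30 min their log2 changes against 0 min were 1.35 (S100a8), 1.39 (S100a9), 0.99 (Retnlg) and -0.24 (Ly6g). At 28 min they were 0.78, 0.82, -0.09 and -0.43 in the same order, and no marker of the 4 was called. The 3 red cell markers, all called higher at 30 min, summed to 101 to 442 FPKM in the 0 min group and 570 to 1034 FPKM in the 30 min group. Fat markers, 3 in number, summed to 50.8 FPKM in 1 kidney of the 18 min group, 16.1 in 1 of the 20 min group and 40.7 in 1 of the 22 min group, against at most 0.52 at 0 min. The part of these markers in the results was not tested.

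Gsta1 and Gsta2 lie in a cluster of near copies on chromosome 9, and how far their reads can be told apart bears on every value below. On build GRCm38.p6 the order is Gsta4 (78191966 to 78209349), Gsta1 (78230669 to 78242683), Gm3776 (78257129 to 78269166), Gm10639 (78289928 to 78305525) and Gsta2 (78331018 to 78347192). Gsta3 stands alone on chromosome 1 (21240565 to 21265575), the mu genes Gstm3, Gstm2 and Gstm1 lie together on chromosome 3 (107963696 to 108017973), Gstt1 (75783813 to 75798584) and Gstt2 (75831842 to 75837419) are on chromosome 10, and Gstp1 (4035411 to 4037912) is beside Gstp2 and Gstp3 on chromosome 19. In the GENCODE M21 transcripts, the coding sequence of Gsta1 differed from that of Gm3776 at 2 of its 672 bases (99.7% identity) and from that of Gsta2 at 17 (97.5% identity). The stretch below, coding positions 449 to 508 counted from the start codon, is shown because it is where these copies can and cannot be told apart, with capitals at bases that differ from Gsta1.
Gsta1: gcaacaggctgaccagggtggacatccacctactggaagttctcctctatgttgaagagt
Gm3776: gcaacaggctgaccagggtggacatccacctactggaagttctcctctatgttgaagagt
Gm10639: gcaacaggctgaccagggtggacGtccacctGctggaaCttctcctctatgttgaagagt
Gsta2: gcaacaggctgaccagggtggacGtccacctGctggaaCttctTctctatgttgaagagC
Gm3776 has no difference from Gsta1 in these 60 bases, Gm10639 has 3 and Gsta2 has 5. Of all windows of 100 bases along the transcript, 18.2% of those of Gsta1 occurred in no other gene of the 4 classes, as did 65.0% of those of Gsta2 and 47.2% of those of Gstp1, which shares 52.8% of its windows with Gstp2. For Gstm1 the share was 98.3%, and for Gsta3, Gsta4, Gstm2, Gstt1 and Gstt2 it was 100%. The read length was not given in the sources used here, and with windows of 50 bases the shares were lower, at 10.3% for Gsta1, 36.5% for Gsta2, 37.7% for Gstp1, 89.1% for Gstm1 and 98.9% for Gstm2. The division of reads between Gsta1 and Gm3776, and in part between Gsta1 and Gsta2 and between Gstp1 and Gstp2, is therefore uncertain. Gsta3, Gsta4, Gstt1 and Gstt2 had 100% at both lengths.

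The stretches from 150 to 61 bases before the start site are printed for 3 members that rose, because those of Gsta1 and Gsta2 share their longest run of identical bases here. In the RefSeq promoter table for GRCm38.p6, Gsta1 is read from the plus strand (chr9:78230519-78230608), and Gsta2 (chr9:78347206-78347295) and Gstp1 (chr19:4037973-4038062) from the minus strand. Capitals mark the shared run of 29 bases in Gsta1 and Gsta2, and an AP-1 motif in Gstp1.
Gsta1: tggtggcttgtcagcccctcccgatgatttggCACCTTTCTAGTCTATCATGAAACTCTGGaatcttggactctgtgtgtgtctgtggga
Gsta2: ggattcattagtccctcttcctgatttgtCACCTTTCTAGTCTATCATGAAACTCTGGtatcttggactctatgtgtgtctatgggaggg
Gstp1: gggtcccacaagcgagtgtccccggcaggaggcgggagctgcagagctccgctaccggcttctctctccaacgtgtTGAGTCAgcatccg
The run of 29 bases begins 118 bases before the start site of Gsta1 and 121 before that of Gsta2, and of 32851 upstream sequences of 250 bases it occurred in 3, those of Gsta1, Gsta2 and Gm3776. The letters TGAGTCA (AP-1, both strands searched) stood in Gstp1, 74 bases before its start site, and in 4.46% of all upstream sequences. The letters TGACNNNGC, the core of the antioxidant response element to which NRF2 binds, stood in Gsta3 among the members, 121 bases before its start site, and in 10.2% of all upstream sequences. Each motif was searched only as the letters given and within 250 bases. A member without a match here may have another form of the motif, or one farther upstream. Sequences were matched for 8 of the 10 members, without Gsta4 and Gstt2. A match of letters is a description of the sequence and not a binding site.

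**Figure D1:**
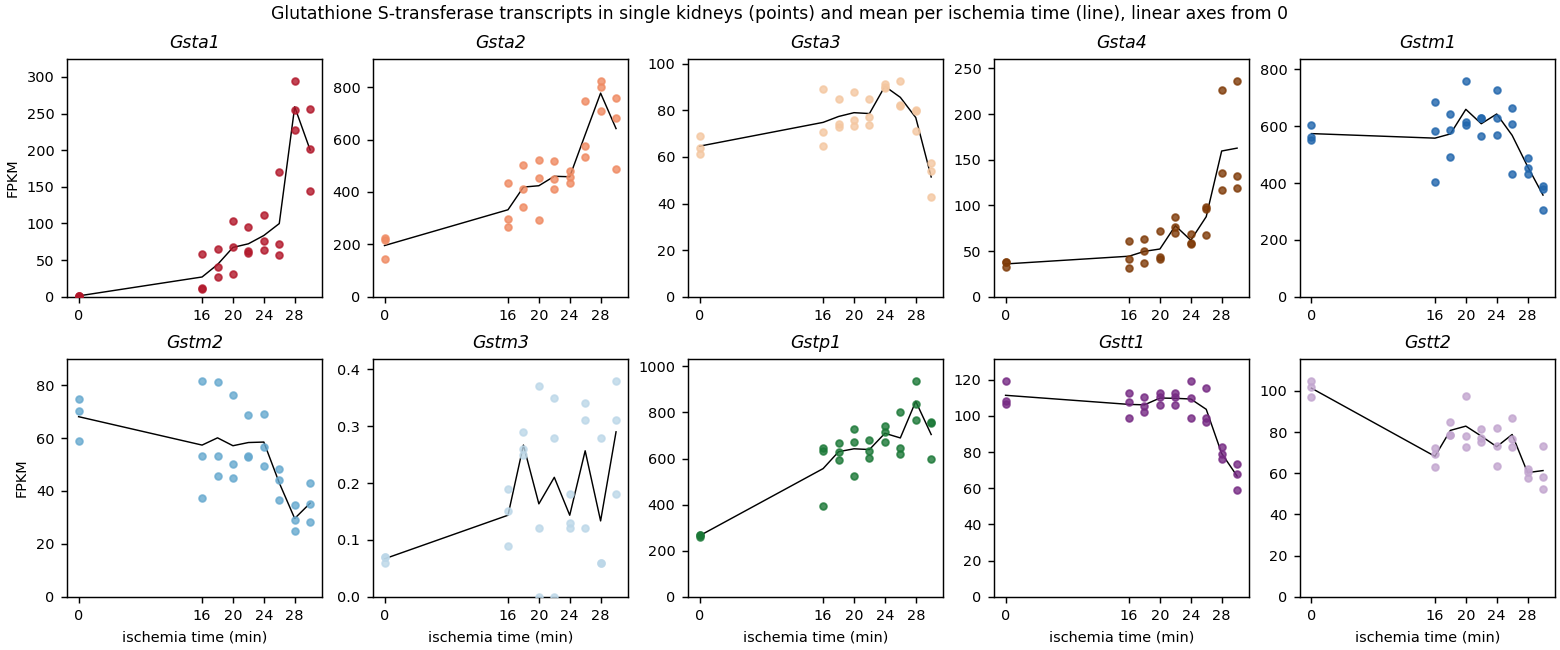
FPKM (linear y axis from 0, a scale of its own for each gene) of the 10 transferases against ischemia time in minutes. Each point is 1 kidney and the line joins the means of 3 kidneys per time; Gsta1 goes from about 1 FPKM at 0 min to between 144 and 295 FPKM at 28 and 30 min, while Gstm1, Gstm2 and Gstt1 have their lowest kidneys there.

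Each ischemia time was compared with the 0 min group to ask which transferase transcripts differ 24 h after ischemia of that length. Fold changes are differences of log2(FPKM + 1) after quantile normalization, fitted with limma over all 27 kidneys, and a gene was called where the change exceeded 1 on the log2 scale and the Benjamini-Hochberg adjusted p over 18188 genes was under 0.05. At 16 min 2 of the 10 members were called higher and 0 lower, where 1.28% of all genes were called higher and 0.979% lower. In the 18 min group 3 were called higher (1.97% of all genes), in the 20 min group 3 (1.55%), in the 22 min group 4 (2.09%), in the 24 min group 3 (1.97%) and in the 26 min group 4 (2.16%). No member was called lower with limma in these 5 groups, where 1.09%, 0.962%, 1.2%, 1.15% and 1.61% of all genes were. With the adjusted p alone and an unadjusted p under 0.05 alike, 1 member was lower in each group from 16 to 24 min, where 9.61%, 15.2%, 12.1%, 15.4% and 14.8% of all genes passed the adjusted p downward, and 2 were lower in the 26 min group (15.2%). The 28 min group had 4 called higher and 1 lower, against 4.27% and 4.21% of all genes, and the 30 min group 4 called higher (5.14%) and 0 lower (5.59%). With the adjusted p alone, 4 members were lower in the 28 min group (23.6% of all genes) and 5 in the 30 min group (25.4%), the same numbers as at an unadjusted p under 0.05. The median log2 change over the 10 members was 0.10 for the 16 min group, 0.28 for 26 min, 0.12 for 28 min and -0.05 for 30 min, beside medians of all genes that stayed between -0.01 and 0.0008. Quantile normalization gives all kidneys the same distribution, so the medians of all genes are held near 0 by the processing. Against 0 min those medians were 0.032 to 0.045 without it and 0.038 to 0.071 after rescaling to TPM instead.

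Gsta1, an alpha transferase that also reduces lipid hydroperoxides, ranged from 0.83 to 294.81 FPKM over the 27 kidneys. The 0 min kidneys held 1.25, 0.83 and 1.44 FPKM, and the 16 min kidneys 12.12, 58.69 and 10.12 FPKM. The 26 min kidneys had 170.25, 56.71 and 72.62 FPKM, those of 28 min 294.81, 227.51 and 255.07 FPKM, and those of 30 min 200.94, 255.9 and 143.86 FPKM. All 24 ischemic kidneys were above the highest 0 min kidney, and the 16 min group held 1 high kidney and 2 low ones. Mean and SD over 3 kidneys were 1.17 ± 0.312 FPKM for the 0 min group, 99.9 ± 61.5 FPKM for 26 min and 259 ± 33.8 FPKM for 28 min. On the log2 scale Gsta1 rose by 3.12 ± 0.52 (SE) at 16 min (adjusted p = 0.000463), by 5.24 ± 0.52 at 26 min (adjusted p = 1.38e-06), by 6.80 ± 0.52 at 28 min (adjusted p = 6.43e-09) and by 6.50 ± 0.52 at 30 min (adjusted p = 3.53e-09). Since the 0 min values are close to the pseudocount of 1 FPKM, these changes depend on it, and with 0.1 FPKM the change at 28 min was 7.5. At 16 min the adjusted p was 0.11 when only the 6 kidneys compared entered the fit, and the change was 2.36 without the high kidney (replicate 2).

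The near copy Gm3776 was listed at 0 in all 3 of the 0 min kidneys and at 158.88, 124.72 and 129.95 FPKM at 28 min, and over the 27 kidneys it was the gene with the pattern most like that of Gsta1 (Pearson's r = 0.993, as a description). Summing Gsta1, Gsta2, Gm3776 and Gm10639, which depends less on how reads were divided among them, gave a rise of 0.92 ± 0.24 at 16 min (adjusted p = 0.0129, not past the fold threshold), 2.63 ± 0.24 at 28 min (adjusted p = 5.86e-08) and 2.27 ± 0.24 at 30 min (adjusted p = 1.78e-07). The 4 copies together thus rose less steeply than Gsta1 by itself, as Gsta2 made up most of the sum at 0 min.

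Gsta2, the alpha transferase with the highest level here, was at 144.12, 218.15 and 223.91 FPKM at 0 min. The 16 min kidneys held 265.67, 434.47 and 295.89 FPKM, all above the 0 min group, and the 28 min kidneys 798.85, 824.55 and 707.8 FPKM. The log2 change of 0.78 ± 0.21 at 16 min passed the adjusted p (0.0147) but not the fold threshold. From 18 min on Gsta2 was called at every time, with a rise of 1.08 ± 0.21 at 18 min (adjusted p = 0.000923), 1.70 ± 0.21 at 26 min (adjusted p = 1.43e-05), 1.88 ± 0.21 at 28 min (adjusted p = 5.23e-07) and 1.68 ± 0.21 at 30 min (adjusted p = 1.37e-06). The calls at 18 and 20 min stood near the fold threshold. Without the lowest 0 min kidney (replicate 1) the changes were 0.89 and 0.92, without replicate 2 of the ischemic group they were 0.93 and 0.95, and with only the 6 kidneys compared the adjusted p at 20 min was 0.0527.

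Gsta4, which is known for conjugating hydroxyalkenals, the reactive aldehydes released from oxidized lipids, was higher at the later times. It stood at 32.08, 37.64 and 38.07 FPKM at 0 min and at 31.44, 60.52 and 41.2 FPKM at 16 min, so that the groups overlapped. The 26 min kidneys held 96.28, 98.63 and 68.13 FPKM, those of 28 min 226.29, 135.7 and 116.73 FPKM, and those of 30 min 236.57, 118.94 and 132.66 FPKM. Each of these 9 kidneys was above all 0 min kidneys, and 1 kidney at 28 min and 1 at 30 min lay far above the other two of their group. The log2 change was 0.19 ± 0.29 at 16 min (adjusted p = 0.732), 1.01 ± 0.29 at 22 min (adjusted p = 0.0138, called), 0.67 ± 0.29 at 24 min (adjusted p = 0.0966), 1.18 ± 0.29 at 26 min (adjusted p = 0.0048), 2.02 ± 0.29 at 28 min (adjusted p = 1.11e-05) and 2.12 ± 0.29 at 30 min (adjusted p = 4.56e-06). At 22 min the call was lost without 0 min replicate 1 (0.94) or 22 min replicate 3 (0.91). Without the high kidney, replicate 1 in both groups, the changes at 28 and 30 min were 1.73 and 1.82.

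Gsta3, the fourth alpha member, went another way. It held 61.24, 63.76 and 68.89 FPKM in the 0 min kidneys and 89.94, 91.31 and 89.67 FPKM in those of 24 min. The 28 min kidneys had 71.14, 79.51 and 80.03 FPKM and those of 30 min 57.4, 54.03 and 42.78 FPKM. All 24 min kidneys were thus above and all 30 min kidneys below the 0 min range. With the adjusted p alone it was higher at 24 min (0.38 ± 0.11, adjusted p = 0.0133) and at 26 min (0.33 ± 0.11, adjusted p = 0.0288), and lower at 30 min (-0.36 ± 0.11, adjusted p = 0.00877). None of these changes passed the fold threshold.

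Gstp1, the only pi class gene among the members and one known also for binding the stress kinase JNK, was called at all 8 ischemia times. Its level was 260.97, 266.28 and 267.83 FPKM at 0 min and 630.59, 643.82 and 394.7 FPKM at 16 min, and the 24 ischemic kidneys ranged from 394.7 to 938.11 FPKM, with no overlap. The log2 change was 1.06 ± 0.12 at 16 min (adjusted p = 1.3e-05), 1.43 ± 0.12 at 26 min (adjusted p = 2.18e-07), 1.55 ± 0.12 at 28 min (adjusted p = 7.12e-09) and 1.34 ± 0.12 at 30 min (adjusted p = 1.47e-08). Its near copy Gstp2 was listed at no more than 16.5 FPKM in any kidney, and the sum of Gstp1, Gstp2 and Gstp3 rose by 1.55 ± 0.12 at 28 min. At 16 min the change lay near the fold threshold: it was 0.97 both without replicate 1 and without replicate 2 of that group, and the adjusted p was 0.0792 with only the 6 kidneys compared. The levels at 18 to 26 min (525.69 to 802.61 FPKM) overlapped among themselves.

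**Figure D2:**
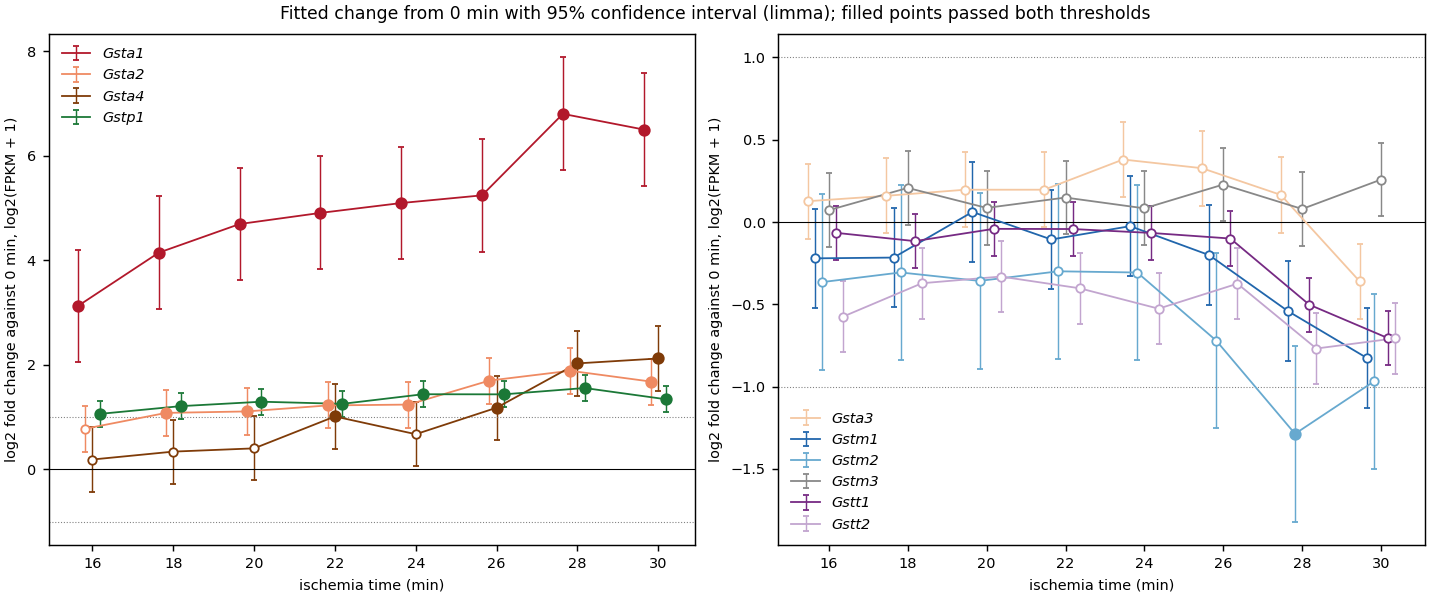
Fitted log2 fold change against the 0 min group (y axis, differences of log2(FPKM + 1)) by ischemia time in minutes for the 4 members called higher in more than 1 comparison (left) and the other 6 (right); bars are 95% confidence intervals from limma, filled points passed both thresholds and dotted lines mark a change of 1 in either direction. Gsta1 stands at 3.12 at 16 min and 6.80 at 28 min, and Gstm2 at 28 min (-1.29) is the only filled point on the right.

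Gstm1, the mu class transferase with the highest FPKM of the 10 genes at 0 min, conjugates epoxides and quinones. The 0 min kidneys held 605.74, 563.88 and 553.01 FPKM, the 28 min kidneys 489.51, 432.02 and 454.51 FPKM, and the 30 min kidneys 379.58, 389.35 and 304.49 FPKM. Both late groups lay wholly below the 0 min range, and the log2 change was -0.54 ± 0.14 at 28 min (adjusted p = 0.00401) and -0.83 ± 0.14 at 30 min (adjusted p = 6.74e-05), neither past the fold threshold. From 16 to 26 min the 18 kidneys ranged from 403.55 to 760.43 FPKM around a median of 611, on both sides of the 0 min values, and no comparison passed; the sign at 22 and 24 min depended on the scaling.

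Gstm2, a further mu transferase, was at 70.34, 59.03 and 74.86 FPKM at 0 min. The 26 min kidneys had 48.25, 36.75 and 44.14 FPKM, those of 28 min 24.95, 34.8 and 29.01 FPKM, and those of 30 min 35.04, 28.08 and 42.99 FPKM, always below the 0 min kidneys. The log2 change was -0.72 ± 0.26 at 26 min (adjusted p = 0.0383), -1.29 ± 0.26 at 28 min (adjusted p = 0.000306, the one call of a lower member) and -0.97 ± 0.26 at 30 min (adjusted p = 0.00319). The 30 min kidney with the highest Gstm2 (replicate 3) also had a summed FPKM of 2190 for 3 loop of Henle markers and 667 for 5 collecting duct markers, where the other two kidneys of the group had 504 to 509 and 308 to 319. Without it the change at 30 min was -1.14 and past the threshold, as it also was without 0 min replicate 2 (-1.06). The sum of all 7 mu genes from Gstm1 to Gstm7 fell by 0.29 ± 0.10 at 28 min (adjusted p = 0.026) and by 0.46 ± 0.10 at 30 min (adjusted p = 0.000729). Gstm3 lay between 0 and 0.38 FPKM in all 27 kidneys, too low for its changes to be read.

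Of the theta class, Gstt1 is known for conjugating small halogenated compounds. The 0 min kidneys had 108.02, 106.73 and 119.52 FPKM, and the 18 kidneys of 16 to 26 min lay between 96.66 and 119.39 FPKM. Those of 28 min had 78.82, 82.75 and 76.22 FPKM and those of 30 min 67.86, 58.97 and 73.39 FPKM. The 6 late kidneys were thus below all of the other 21. The changes of -0.50 ± 0.08 at 28 min (adjusted p = 2.68e-05) and -0.71 ± 0.08 at 30 min (adjusted p = 2.91e-07) passed the adjusted p but not the fold threshold. From 16 to 26 min the estimates lay between -0.12 and -0.04, with adjusted p from 0.305 to 0.769.

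Gstt2, the second theta gene, was lower from the shortest ischemia on. Its 0 min kidneys held 97.03, 104.98 and 101.96 FPKM, and its 16 min kidneys 69.36, 63.2 and 72.09 FPKM. Of the ischemic kidneys, 1 at 20 min (97.59 FPKM) reached the 0 min range and 23 lay below it. The log2 change was -0.57 ± 0.10 at 16 min (adjusted p = 0.000871), -0.33 ± 0.10 at 20 min (adjusted p = 0.0259), -0.77 ± 0.10 at 28 min (adjusted p = 4.75e-06) and -0.71 ± 0.10 at 30 min (adjusted p = 8.69e-06), and it passed the adjusted p at all 8 times without passing the fold threshold at any.

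Comparing 28 with 26 min, between which the summed proximal tubule markers differed as given above, 1 member was called higher (Gsta1) and 0 were called lower, where 0.44% of all genes were called higher and 1.06% lower. Gsta1 rose by 1.56 ± 0.52 (adjusted p = 0.04), with all 28 min kidneys above all 26 min kidneys. This call was at the edge of the threshold: the adjusted p was 0.0528 after rescaling to TPM, 0.0579 with only the 6 kidneys compared and between 0.0723 and 0.177 without 26 min replicate 2, 26 min replicate 3 or any one of the 28 min kidneys, and the sum of the 4 copies changed by 0.58 ± 0.24 (adjusted p = 0.107). Gsta4 was higher by 0.85 ± 0.29 (adjusted p = 0.049), and Gstt1 and Gstt2 were lower by -0.40 ± 0.08 (adjusted p = 0.00149) and -0.39 ± 0.10 (adjusted p = 0.0114), all without passing the fold threshold. Gstp1 differed by 0.12, with a 95% interval from -0.13 to 0.37, and Gsta2 by 0.19, with an interval from -0.25 to 0.63.

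From 28 to 30 min no member was called with limma (0.401% of all genes were called higher and 0.649% lower), 1 passed the adjusted p (6.77% of all genes did downward) and 2 had an unadjusted p under 0.05, all downward. The one past the adjusted p was Gsta3, which was lower by -0.53 ± 0.11 (adjusted p = 0.0043), and the second was Gstt1 (-0.20 ± 0.08, adjusted p = 0.0967). The change of Gsta1 was -0.30 with an interval from -1.38 to 0.78, and that of Gstm2 0.32 with an interval from -0.21 to 0.85.

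Within 16 to 26 min a straight line on ischemia time was fitted to the 18 kidneys, to ask whether a transferase moved with the length of ischemia over this range. No member passed the adjusted p with limma, and of all genes 0.011% passed upward and 0% downward. The unadjusted p was under 0.05 in 5 members, all with a positive slope. Per 10 min of ischemia the log2 slope was 1.95 ± 0.49 for Gsta1 (adjusted p = 0.251), 0.74 ± 0.18 for Gsta2 (adjusted p = 0.236), 0.94 ± 0.23 for Gsta4 (adjusted p = 0.236), 0.36 ± 0.10 for Gstp1 (adjusted p = 0.313) and 0.24 ± 0.09 for Gsta3 (adjusted p = 0.44). The slope of Gstt1 was -0.0036 ± 0.049 and that of Gstt2 0.07 ± 0.10.

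The shares of the 10 members in their summed FPKM differed between the groups. Summed over the 10 genes, the level was 1417 ± 34.5 FPKM (SD, n = 3 throughout) in the 0 min group, 1825 ± 322 FPKM after 16 min, 2375 ± 408 FPKM after 26 min, 2749 ± 122 FPKM after 28 min and 2282 ± 350 FPKM after 30 min of ischemia, from 0.264% of all FPKM in the 0 min group to 0.506% in the 28 min group. Gstm1 gave 40.6% ± 2.96 of the sum in the 0 min group, 23.9% ± 2.69 after 26 min and 15.7% ± 0.45 after 30 min. Its own mean level was 574, 568 and 358 FPKM in these groups, so its share at 26 min was lower because the sum was higher. The 4 alpha members gave 20.9% ± 3.15 in the 0 min group, 37.4% ± 2.06 after 26 min and 46.3% ± 3.09 after 28 min, and the 3 mu members 45.4% ± 3.12, 25.7% ± 2.77 and 17.8% ± 0.112 in the same groups. For neither set of members did the 0 min and 28 min kidneys overlap in share. These shares leave out Gm10639 and Gm3776 of the alpha class, the latter at 125 to 159 FPKM after 28 min. They also leave out the other mu genes, among them Gstm5, at 145 to 167 FPKM in the 0 min group and 243 to 252 FPKM after 28 min (log2 change 0.72 ± 0.12, adjusted p = 5.37e-05, not past the fold threshold). Gstm5 was named after its values were seen. For the sum of all 7 mu genes the comparisons of 16 to 26 min gave log2 changes of 0.04 to 0.25 and adjusted p from 0.0834 to 0.852. Gstp1 went from 18.7% ± 0.213 in the 0 min group to between 29.1% and 31.0% on average at all ischemia times. The order of single genes moved too: Gstm1 was highest in 3 of 3 kidneys at 0 min, Gstp1 exceeded it in 3 of 3 kidneys at each time from 24 min on, and Gsta2 exceeded it in 2 of 3 kidneys at 26 min and 3 of 3 at 28 and 30 min. The levels of Gsta2 and Gstp1 overlapped at 28 and 30 min, so their order there was not resolved.

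**Figure D3:**
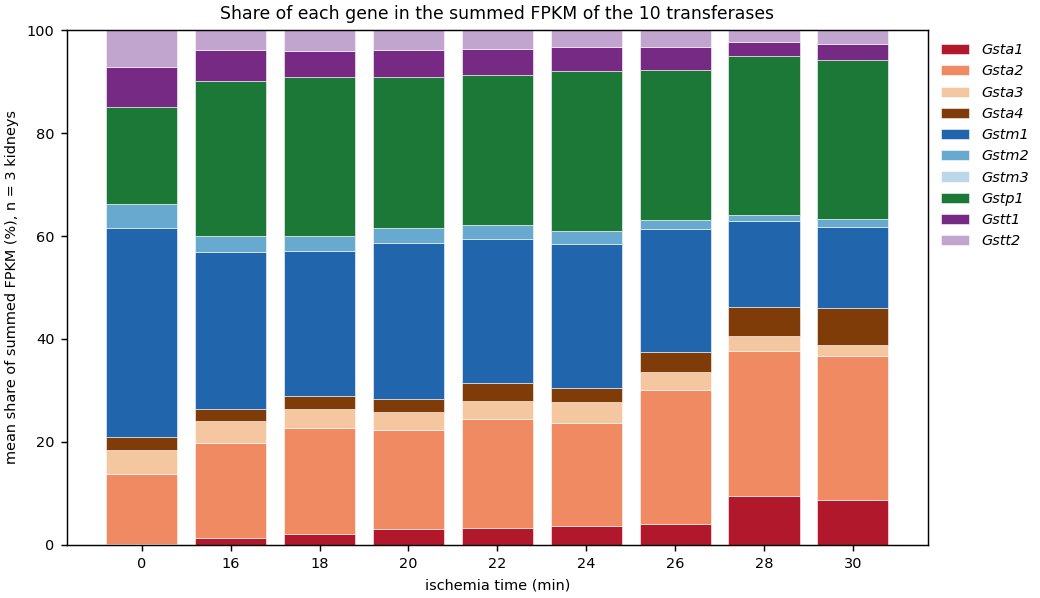
Mean share (%) of each gene in the summed FPKM of the 10 transferases at each ischemia time in minutes, n = 3 kidneys per bar. The 3 mu members, in blue, have 45.4% at 0 min and 17.3% at 30 min, while the 4 alpha members, in red and brown, go from 20.9% to 46.0%.

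Over the 18 kidneys of 16 to 26 min the members were compared in pairs, 36 pairs without Gstm3, by two-sided permutation tests on log2 values with Benjamini-Hochberg adjustment over the pairs. Gsta2 rose and fell with Gsta4 (Pearson's r = 0.834, p = 2e-05, adjusted p = 0.00036; Spearman's rho = 0.769, p = 4e-04, adjusted p = 0.0072; r = 0.746 without the 2 kidneys farthest from the median of Gsta2). It also went with Gstp1 (r = 0.696, p = 0.00154, adjusted p = 0.00924; rho = 0.744, p = 0.00074, adjusted p = 0.00888; r = 0.730 without the 2 farthest kidneys). Gsta1 went with Gstp1 likewise (r = 0.794, p = 6e-05, adjusted p = 0.00072; rho = 0.709, p = 0.0012, adjusted p = 0.0108; r = 0.797 without the 2 farthest). Gsta1 and Gsta2, which share reads, had r = 0.805 (p = 1e-05, the smallest the permutations can give, adjusted p = 0.00036), but their rho of 0.598 did not pass the adjustment (p = 0.00971, adjusted p = 0.0699). Kidneys were permuted across ischemia times, so a shared trend with time enters these p-values. With the mean of each time subtracted, r was 0.752 for Gsta2 with Gsta4 and 0.532 for Gsta2 with Gstp1. It was 0.655 for Gsta1 with Gstp1 and 0.741 for Gsta1 with Gsta2.

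The one inverse pair that passed with both measures was Gsta2 with Gstm2 (r = -0.729, p = 0.00057, adjusted p = 0.00513; rho = -0.779, p = 0.00017, adjusted p = 0.00612; r = -0.718 without the 2 kidneys farthest from the median of Gsta2). Taken as deviations from the mean of each ischemia time, r was -0.821, so the relation also stood between kidneys of equal ischemia. Over the same 18 kidneys Gstm2 went with the summed collecting duct markers (r = 0.883) and loop of Henle markers (r = 0.830), and Gsta2 went against both (r = -0.575 and r = -0.644). These marker sums ranged from 272 to 747 FPKM for the collecting duct and from 798 to 2524 FPKM for the loop of Henle, and their part in the result was not tested. Gstm1, for its part, went against the summed podocyte markers (r = -0.856), which lie in the cortex. By absolute size, the largest r of Gsta2 with any marker sum was that with the liver markers (r = -0.758), where Gstm2 had r = 0.614. The pairs named are a selection from a larger set of members and marker sums. All r with markers are descriptions.

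**Figure D4:**
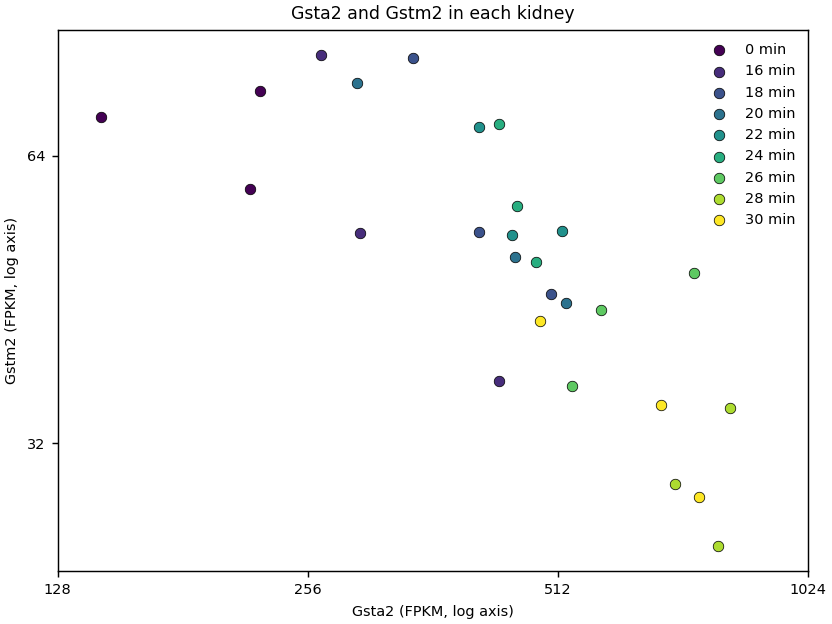
Gsta2 (x axis) against Gstm2 (y axis), both in FPKM on log axes, with 1 point per kidney coloured by ischemia time in minutes. The 0 min kidneys sit at the upper left and the 28 min kidneys at the lower right, and the 16 to 26 min kidneys slope downward between them (r = -0.729 over those 18).

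Genes whose pattern over the 27 kidneys was most like a member's were named by Pearson's r among 12337 other genes with a mean of at least 1 FPKM. They were Alyref (r = 0.961) and Rpl12 (r = 0.956) for Gsta1 after Gm3776, Eftud2 (r = 0.929), the pentose phosphate enzyme gene Tkt (r = 0.926) and Rpl3 (r = 0.920) for Gsta2, Eif3c (r = 0.920), Steap1 (r = 0.919) and Steap2 (r = 0.914) for Gsta4, and Gpaa1 (r = 0.968), Rps2 (r = 0.939) and Eif5a (r = 0.938) for Gstp1. Of these, Rpl12, Rpl3, Rps2, Eif3c and Eif5a encode ribosomal proteins or translation factors. Gstm2 was most like Cab39l (r = 0.935), the vasopressin receptor gene Avpr2 (r = 0.935) and Ppp1r1a (r = 0.934). Gstm1 was most like Serpina1f (r = 0.898), Gstt1 like Dmtn (r = 0.953), Gstt2 like the peroxisomal thioesterase gene Acot3 (r = 0.894) and Gsta3 like Pomt2 (r = 0.864). The points share the 9 groups, so any gene that moved with ischemia time can stand in such a list.

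Other genes of glutathione use were described from lists, with counts at 30 min against 0 min. Over all genes 5.14% were called higher and 5.59% lower in that comparison, with a median change of 0.0008 on the log2 scale. A list of 28 other transferases and related genes had 7 called higher and 3 lower, with a median log2 change of 0.38. It holds relatives that are not glutathione transferases, among them 5 chloride intracellular channel genes (Clic) and Alox5ap. Of these 6, Clic1 was called higher (1.89 ± 0.16, adjusted p = 8.38e-09). Without these 6, a trimming made after the values were seen, 6 of 22 were called higher and 3 lower (median 0.47). The 22 still hold relatives such as Ptges and Ptges2. Gm3776 and Gm10639 were higher, as were the prostaglandin D synthase gene Hpgds (1.52 ± 0.10, adjusted p = 1.98e-10) and the leukotriene C synthase gene Ltc4s (1.43 ± 0.23, adjusted p = 2.37e-05). Lower were Gstk1, the mitochondrial and peroxisomal kappa transferase (-1.70 ± 0.15, adjusted p = 1.46e-08), Gstz1, which acts in tyrosine breakdown (-1.70 ± 0.11, adjusted p = 2.21e-10), and Gstm7 (-1.36 ± 0.18, adjusted p = 1.8e-06). The near copies of Gsta1 are counted in this list.

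Of 20 genes of glutathione synthesis, breakdown and recycling, 2 were called higher and 8 lower (median -0.13), beside 5.14% and 5.59% of all genes. Gclc and Gclm, which encode the parts of the enzyme that starts its synthesis, were not among them (0.36 ± 0.21, adjusted p = 0.168, and 0.05 ± 0.11, adjusted p = 0.722). The lower ones included enzymes of the proximal tubule brush border that break down glutathione and its conjugates outside the cell: Dpep1 (-2.45 ± 0.41, adjusted p = 3.65e-05), Anpep (-2.37 ± 0.13, adjusted p = 6.43e-11) and Ggt1 (-1.35 ± 0.07, adjusted p = 4.02e-11). Lower levels in this list were not confined to these enzymes. Lap3 held 226.62 to 255.87 FPKM in the 0 min kidneys and 87.32 to 105.28 FPKM in those of 30 min. In the same order Cndp2 held 410.13 to 571.88 and 170.37 to 230.41 FPKM, and Ggct 16.19 to 24.49 and 6.3 to 9.61 FPKM. Of the pair of genes for enzymes that degrade glutathione inside the cell, Chac1 was higher (1.07 ± 0.32, adjusted p = 0.00857) and Chac2 lower (-1.46 ± 0.14, adjusted p = 3.53e-08). Of 12 glutathione peroxidases and glutaredoxins, 0 were called higher and 2 lower with limma (median 0.19; 5.14% and 5.59% of all genes), 6 had an unadjusted p under 0.05 upward and 3 downward, and the 2 were Gpx6 (-2.81 ± 0.41, adjusted p = 7.51e-06) and Gpx1 (-1.29 ± 0.09, adjusted p = 5.53e-10).

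Downstream, of 14 genes that turn conjugates into mercapturates or carry them across membranes, 1 was called higher and 7 lower (median -0.59), where 5.14% and 5.59% of all genes were. Nat8, which acetylates cysteine conjugates, was lower (-2.04 ± 0.18, adjusted p = 1.3e-08), as were the aminoacylase genes Acy3 (-2.33 ± 0.17, adjusted p = 1.66e-09) and Acy1 (-2.15 ± 0.18, adjusted p = 5.81e-09) and the organic anion transporter gene Slc22a8 (-1.75 ± 0.26, adjusted p = 9.43e-06), while the export pump gene Abcc3 was higher (1.62 ± 0.23, adjusted p = 4.86e-06). Many of these genes are expressed in the proximal tubule. Its summed markers, of which Slc34a1 was the largest part, were 837 to 964 FPKM in the same kidneys against 3402 to 3682 at 0 min. The part of that difference in the result was not tested. Of 18 genes made up of NRF2, Keap1 and NRF2 targets other than transferases, 8 were called higher and 1 lower (median 0.86), against 5.14% and 5.59% of all genes, with Hmox1 (3.07 ± 0.29, adjusted p = 3.31e-08) and Srxn1 (2.997 ± 0.17, adjusted p = 7.2e-11) in front and Me1 lower (-1.14 ± 0.09, adjusted p = 4.08e-09). The 18 are not a full set of NRF2 targets. Gclc, Gclm, Gsr and Slc7a11 were counted with the synthesis genes instead. Of these, Gclc and Gclm were not called. Gsr held 74.41 to 84.45 FPKM at 0 min and 102.72 to 132.36 FPKM at 30 min, and Slc7a11 0.01 to 0.05 and 0.7 to 0.77 FPKM. At 16 min, when Gsta1 and Gstp1 were already called, 1 of these 18 was called higher (Hmox1) and 0 lower, where 1.28% and 0.979% of all genes were. With the adjusted p alone 6 of the 18 were higher at 16 min (9.43% of all genes) and 0 lower, the 6 being Hmox1, Nqo1, Pgd, Taldo1, Tkt and Ephx1, and 3 had an unadjusted p under 0.05 downward.

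**Figure D5:**
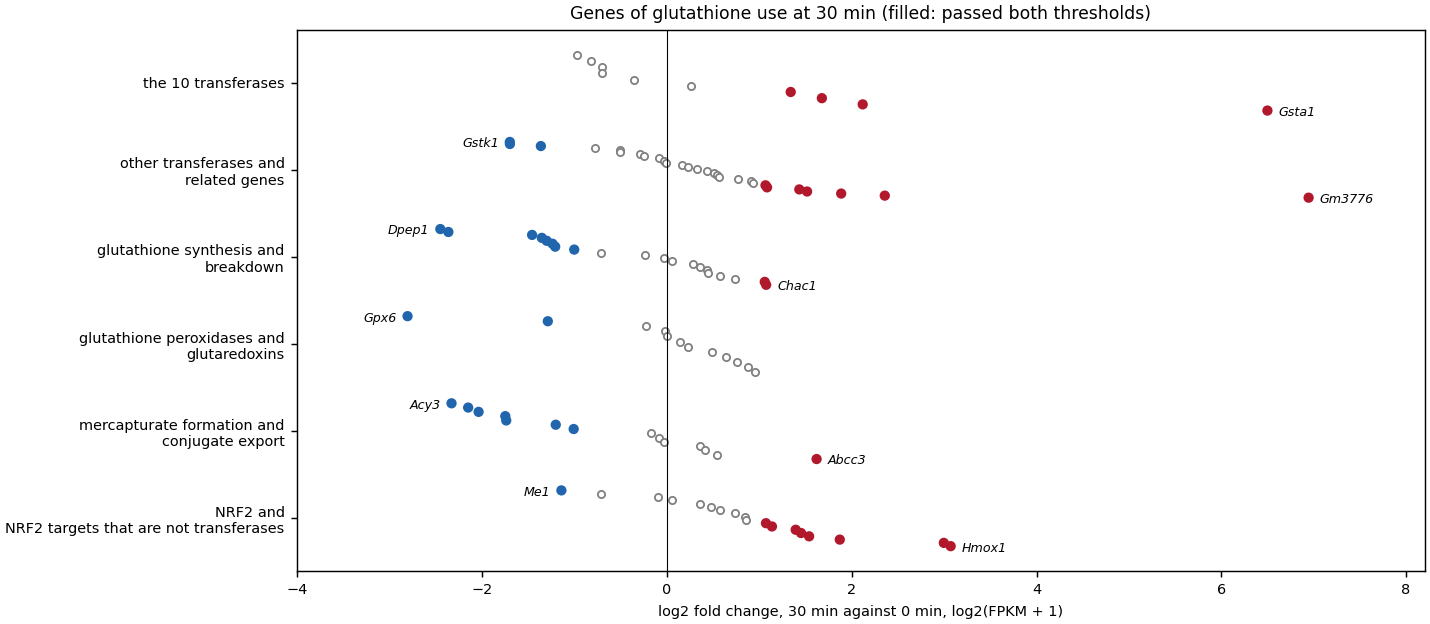
Log2 fold change at 30 min against 0 min (x axis, differences of log2(FPKM + 1)) for the 10 transferases and 5 lists of glutathione genes (y axis); each point is 1 gene, filled red or blue where it passed both thresholds upward or downward, with the outermost called gene of each list named. The mercapturate list has 7 blue points and 1 red, and the NRF2 list 8 red and 1 blue.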

How the data were processed

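The deposited values were FPKM per gene for the 27 kidneys, made by the authors; the submitters' processing notes name Bowtie2, RSEM, DESeq2 and the build GRCm38.p6, without versions, and the library kit and read length were not given in the sources used here. The members and the gene lists were chosen with earlier results of these data known, so no count over them is independent evidence. All 10 members were named with values per kidney for those called in any comparison. From each other list only some genes were named, and these were not always the called genes with the largest change at 30 min.

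Groups came from the labels, with 3 mice each. The limma p-values set a change against the spread between mice, estimated over all kidneys in the fit. Genes above 0 FPKM in at least 3 kidneys were kept (18188 of 19392), log2(FPKM + 1) was quantile normalized, and limma 3.58.1 (R 4.3.3) fitted 1 mean per ischemia time. Fold changes are on the log2(FPKM + 1) scale, which understates changes of low genes. To be called, a gene had to pass an adjusted p (Benjamini-Hochberg) of 0.05 and a log2 change of 1, the slope the adjusted p alone. The script was tested on simulated data. Coding sequences came from GENCODE M21 and upstream sequences from RefSeq, both on GRCm38. Alternatives were another pseudocount (0.1 FPKM), scaling, filter, variance trend, replicate block, 2 groups only, sums with near copies, and leaving out each kidney.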

Additional observations from a re-analysis of the deposited data

How the results depend on the processing

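Of 1727 recomputed changes of single members, 1661 kept their direction and their side of the thresholds, 21 lost a call, 3 gained one and 42 changed sign. The number of members called at 16 min (2) became 0 with only the 2 groups compared and 1 with sums of near copies, and ranged from 1 to 2 with single kidneys left out (1 without 16 min replicate 1 or replicate 2). From 26 to 28 min the number (1) became 0 after rescaling to TPM, with only the 2 groups compared and with sums of near copies, and ranged from 0 to 1 with single kidneys left out (0 without 26 min replicate 2 or 3 or 28 min replicate 1 or 2, while without 28 min replicate 3 the 1 called was Gsta4, at 1.07, and not Gsta1). The other counts of both directions together stayed within 1.5 times under the alternatives run, but the 1 called lower at 28 min (Gstm2) became 0 with sums of near copies, and the 0 called lower at 30 min became 1 (Gstm2) without 0 min replicate 2 or 30 min replicate 3. The causes were not tested, except that the 2-group fit has fewer kidneys to estimate the spread.

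Changes of sign came from members near 0 or from the mu sum, which stands in for each of Gstm1, Gstm2 and Gstm3. The mu sum was 0.039 (16 min), 0.083 (18 min), 0.25 (20 min), 0.13 (22 min), 0.18 (24 min) and 0.11 (26 min) against 0 min where Gstm2 and, but for 20 min, Gstm1 were below 0; it was -0.29 (28 min) and -0.46 (30 min) where Gstm3 was above 0, -0.18 from 28 to 30 min and 0.077 for the slope, and the slope of Gstt1 with Gstt3 was 0.0063. Without quantile normalization Gstm1 became 0.084 at 22 min and 0.16 at 24 min, after rescaling to TPM 0.078 and 0.16, and the Gstt1 slope became 0.015 after rescaling. With single kidneys left out, values that crossed 0 ranged as follows: Gsta4 -0.050 to 0.41 and Gsta3 -0.025 to 0.24 at 16 min, Gstt1 -0.0800 to 0.012, Gstm3 -0.028 to 0.18 and Gstm1 -0.035 to 0.13 at 20 min, Gstt1 -0.081 to 0.010 at 22 min, Gstm1 -0.14 to 0.058 at 24 min, Gstm3 -0.018 to 0.13 at 28 min, Gsta4 -0.21 to 0.39 and Gstt2 -0.057 to 0.15 from 28 to 30 min, and the slopes of Gstt1 -0.030 to 0.026, Gstt2 -0.0018 to 0.11 and Gstm1 -0.037 to 0.20.

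The replicate numbers did not pair the kidneys: over 108 same-number pairs the median correlation of deviations from group means was -0.01, with 25 pairs over 0.1, and 10 of 27 kidneys were closest to their own number. The replicate block left the counts of members called as they were (2 at 16 min, 3 at 18, 20 and 24 min, 4 at 22, 26 and 30 min, 5 at 28 min) and changed no call of a member. Without counts, no interval from depth could be given, and values near 0, as those of Gstm3, are the least certain.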
